A study of Homo sapiens with 6 samples.

Results

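The 10 genes described here, *ERBB2*, *GRB7*, *STARD3*, *PGAP3*, *MIEN1*, *CDK12*, *IKZF3*, *MED1*, *TOP2A* and *RARA*, lie on the long arm of chromosome 17 between 37.56 and 38.60 Mb of hg19. They were taken by name, from a window of 35.48 (outer bin edge) to 42 Mb that holds 203 protein-coding genes, 198 of them with usable data. Over the whole genome, 18478 genes had usable data. The genes overlap 16 distinct bins of 40 kb, and all 16 passed the filter on low coverage. Chromatin contacts were mapped by in situ Hi-C, which cuts cross-linked DNA, joins ends that lie close together in the nucleus and counts the joined read pairs. The labels name no treatment. The maps came from 4 cancer cell lines, the colon lines SW480 and SNU-C1, the breast line HCC1954 and the esophageal adenocarcinoma line OE33. SW480 had 2 numbered replicates and 1 further map that pools them, whereas each remaining line had 1 map, so a difference between lines has no replicate check outside SW480 and no test was made. No normal cells were analysed here, and 1 line of each tissue (for colon, a pair of lines) stands for that tissue alone. A cell line keeps the rearrangements of 1 tumor, and line and tissue cannot be told apart here.

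The maps held 116359220 to 141118698 read pairs between different bins per line. Pairs that join different chromosomes made up 36.6% in OE33, 19.6% in HCC1954 and 14.8% in SNU-C1, but 0.263% in SW480, so SW480 was left out of contacts with other chromosomes. Intervals given below cover counting error alone.

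*ERBB2* encodes HER2, a receptor tyrosine kinase of the epidermal growth factor receptor family that binds no known ligand of its own and signals as a partner of the other receptors. Its locus is known for focal gains of DNA in breast and gastro-esophageal adenocarcinoma, in which neighboring genes are carried along. When a stretch of DNA is present in many copies, more read pairs fall on it, and when it is joined to a distant sequence, read pairs between both places rise, so Hi-C maps show gained segments and their joined partners together. A read-pair count is not a count of DNA copies.

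MboI, the enzyme of these maps, cuts at GATC, so the ends that are joined lie at such sites. The sites closest to the starts of *ERBB2* and *TOP2A* whose surrounding 60 bases overlap no exon are shown with the cut site in capitals, on the plus strand of hg19. They stand for a gene inside and a gene outside the gained segments.
ERBB2: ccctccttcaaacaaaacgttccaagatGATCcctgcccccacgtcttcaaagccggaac
TOP2A: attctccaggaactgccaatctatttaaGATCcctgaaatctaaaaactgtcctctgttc
The first sequence is chr17:37843641-37843700, 498 bp before the annotated start of *ERBB2* and within an intron of *PGAP3*, which runs in the opposite direction. The second is chr17:38574503-38574562, 383 bp before the start of *TOP2A*, outside any annotated gene. The 40-kb bins that contain them hold 125 and 152 sites, against a median of 111 over chromosome 17, with lowest and highest deciles of 90 and 138. Sites were counted in hg19 alone, and sites that differ in a line were not measured.

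*ERBB2* itself (chr17:37844167-37886679, plus strand) had the coverage of an ordinary autosomal locus in the colon lines and far more in the other lines. Coverage is given as a multiple of the median read pairs per autosomal bin of the line, which was 3081 for HCC1954 and 3914 for OE33, next to 3722 and 3728 for SW480 and SNU-C1. The level of *ERBB2* was 1.03 in SW480 (replicates 1.02 and 1.04) and 0.797 in SNU-C1, against 53.3 in HCC1954 and 17.1 in OE33. HCC1954 and OE33 stood far outside the 2.14% that separated the SW480 replicates. Summed over its bins, *ERBB2* had 328328 read pairs in HCC1954 (95% Poisson interval 327206 to 329453) and 134128 in OE33 (133411 to 134848). SW480 had 7666 and SNU-C1 had 5945. Pairs that join the *ERBB2* bins to each other count once in each bin, and the intervals do not allow for this. Over the median of the other 3 lines, *ERBB2* reached 51.7 times in HCC1954, rank 6 of 18478 genes, and 16.6 times in OE33, rank 16.

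In counts of members, *GRB7* and *MIEN1* are counted separately although they share a bin. *ERBB2*, *PGAP3*, *STARD3*, *IKZF3*, *CDK12* and *MED1* each share a bin with a neighboring member as well, so values by gene are not separate measurements. Of the 10 genes, 7 reached 4 times the other lines or more in HCC1954 and 8 did so in OE33. Over all genes that share was 0.514% in HCC1954 and 1.57% in OE33. No member reached it in SW480 or SNU-C1, where 0.0108% and 0.0379% of all genes did. The reference of these lines includes both gained lines. At ordinary coverage, a gene gained in both could therefore not reach 4 times there. With pairs between chromosomes alone, which leaves SW480 out and makes the mean of the remaining pair of lines the reference, 7 members stayed at 4 times or more in HCC1954 and 1 did in OE33. *ERBB2* then had 7.05 in HCC1954 and 0.537 in OE33, whose reference holds HCC1954. Scaled to chromosome 17 its OE33 ratio was 10.7, and over the surrounding 1 Mb the ratios were 25.5 in HCC1954 and 6.94 in OE33. At 8 times or more there were 7 members in HCC1954 (0.103% of all genes) and 6 in OE33 (0.325%). All 60 OE33 genes at 8 times or more lay in this window of chromosome 17, as did 17 of the 19 such genes of HCC1954.

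**Figure D1:**
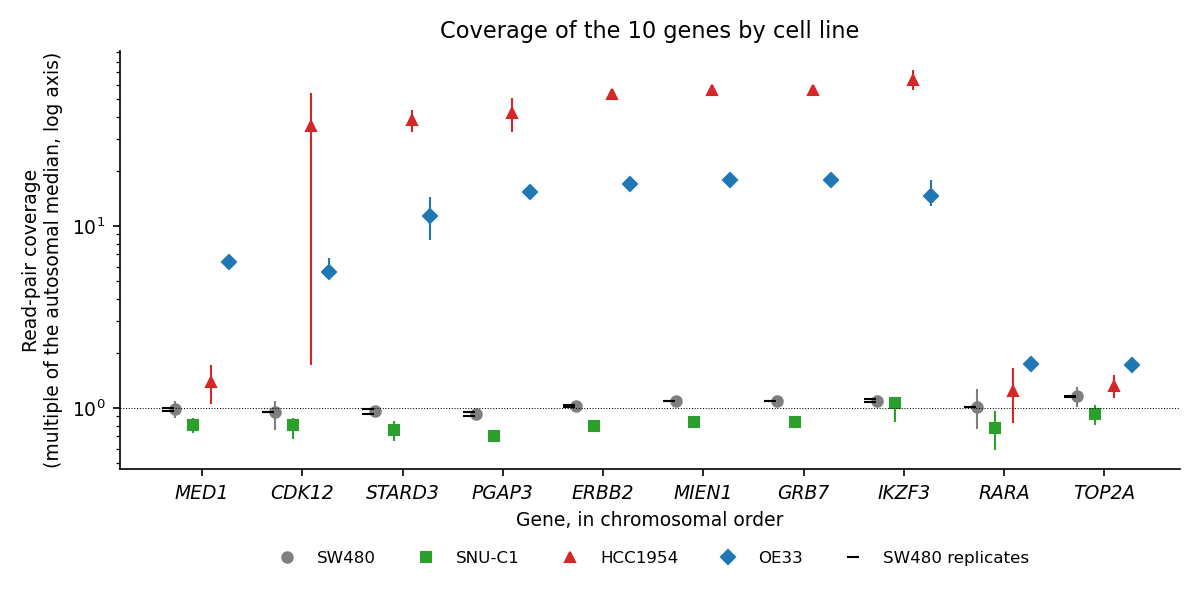
Read-pair coverage of the 10 genes (vertical log axis, multiple of the line's autosomal median) in chromosomal order, with 1 symbol per cell line, vertical lines from the lowest to the highest bin of the gene and black dashes for the 2 SW480 replicates. HCC1954 runs from 1.4 at *MED1* to 63.5 at *IKZF3* and back to 1.33 at *TOP2A*, OE33 starts at 6.37 at *MED1*, and SW480 and SNU-C1 stay between 0.704 and 1.16.

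The genes next to *ERBB2* had raised levels in both lines, in part because they share its bins. *GRB7* (chr17:37894180-37903544), an adaptor protein that binds activated ERBB2, and *MIEN1* (chr17:37884749-37886785), a small membrane-anchored protein, lie in the same bin, which also holds the end of *ERBB2* and the end of *IKZF3*, so their values are 1 measurement. That bin stood at 1.09 in SW480 and 0.844 in SNU-C1, against 55.8 in HCC1954 and 18 in OE33. *PGAP3* (chr17:37827375-37853050), which remodels the lipid of GPI anchors, had 0.934, 0.704, 41.7 and 15.4 in the same order of lines. Its bins are shared with *ERBB2* and with *STARD3*. *IKZF3* (chr17:37913971-38020565), the lymphoid transcription factor Aiolos, had 1.1, 1.07, 63.5 and 14.7. In HCC1954 *IKZF3* was the highest of all 18478 genes at 57.6 times the other lines, whereas in OE33 it ranked 40 at 13.4 times.

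*STARD3* (chr17:37793343-37820454), a cholesterol-binding protein of late endosomes, and *CDK12* (chr17:37617739-37723812), a kinase of RNA polymerase II, lay at steps in the profile. *STARD3* had 0.959 in SW480 and 0.755 in SNU-C1, against 38.2 in HCC1954 and 11.4 in OE33, and its 2 bins in OE33 differed, at 8.43 and 14.5. *CDK12* had 0.954, 0.813, 35.3 and 5.61, and its ratio of 5.89 in OE33 dropped to 3.79 when levels were scaled to chromosome 17. Its 4 bins spanned 1.73 to 53.6 in HCC1954 and 5.32 to 6.71 in OE33. In HCC1954 the profile therefore rose within *CDK12*, while in OE33 the gene lay wholly on a lower plateau than *ERBB2*.

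*MED1* (chr17:37560538-37607525), a Mediator subunit that contacts nuclear receptors, separated the lines. Its level was 0.987 in SW480 (replicates 1 and 0.97) and 0.806 in SNU-C1, against 1.4 in HCC1954 and 6.37 in OE33. It was thus gained in OE33, at 6.45 times the other lines, and not in HCC1954, at 1.41 times.

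*TOP2A* (chr17:38544777-38574148), the topoisomerase targeted by anthracyclines, and *RARA* (chr17:38465432-38513895), the retinoic acid receptor alpha, lay beyond the segment in both lines. *TOP2A* had 1.16 in SW480 (replicates 1.15 and 1.17) and 0.924 in SNU-C1, against 1.33 in HCC1954 and 1.73 in OE33. *RARA* had 1.02, 0.775, 1.25 and 1.75. Their ratios to the other lines were 1.15 and 1.23 in HCC1954 and 1.49 and 1.72 in OE33, ranks of 4448 or beyond among all genes in OE33. Scaled to chromosome 17, the OE33 ratios were 0.961 and 1.11, so *TOP2A* was no longer above the other lines. Between the SW480 replicates the 10 genes differed by 0.605% to 6.02%.

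The 40-kb profile placed the edges. A segment was a run of at least 3 usable bins at 4 times the other lines or more, bridging up to 2 usable bins below. Unusable bins were skipped. HCC1954 had 1 segment, chr17:37640001-38160000, 520 kb long, with a median of 52.5 times the other lines over its 13 bins and a range of 24.2 to 65.5. Its left edge fell in *CDK12*, where the ratio went from 1.59 to 40.3 between adjacent bins. Its right edge fell at *GSDMA*, a gasdermin, and *PSMD3*, a proteasome subunit. The last bin there had 24.2 and the next had 1.05. The same edges were found at 2 and at 8 times.

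OE33 had 2 segments at 4 times, and 4 at either 2 or 8 times. The first, chr17:35600001-38240000, was 2640 kb long and ran from *ACACA*, acetyl-CoA carboxylase, to *MED24*, a Mediator subunit, and *THRA*, the thyroid hormone receptor alpha. Over its 58 usable bins the median was 7.16 times the other lines. Bins without usable data, such as those from 36.24 to 36.48 Mb, were skipped, so the segment was not shown to be continuous there. It was made of 2 levels: at 37.80 Mb, within the bins of *STARD3*, the mean of 3 bins rose from 7.02 to 16.4. At 38.24 Mb it fell from 16.7 to 0.993. The inner stretch of 440 kb, with a median of 16.3, held *ERBB2*, *GRB7*, *PGAP3*, *MIEN1* and *IKZF3* whole. At 8 times or more the stretch began 1 bin earlier, at 37.76 Mb, and measured 480 kb.

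The second OE33 segment, chr17:39360001-40080000, held no member. It was 720 kb long, began at the keratin-associated protein genes *KRTAP9-2*, *KRTAP9-3* and *KRTAP9-8* and ended at *ACLY*, ATP citrate lyase. Its median was 15.1 times the other lines over 18 bins, close to the 16.3 of the *ERBB2* stretch. Its highest gene, *JUP*, which encodes plakoglobin of cell junctions, reached 24 times. Between the segments, from 38.72 to 39.36 Mb, OE33 coverage lay below that of the other lines, with a median ratio of 0.57 and a range of 0.476 to 0.681. *TOP2A* and *RARA* lay in the stretch before that, from 38.24 to 38.72 Mb, at a median of 1.43. The positions of these steps and plateaus were chosen after the values were seen.

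**Figure D2:**
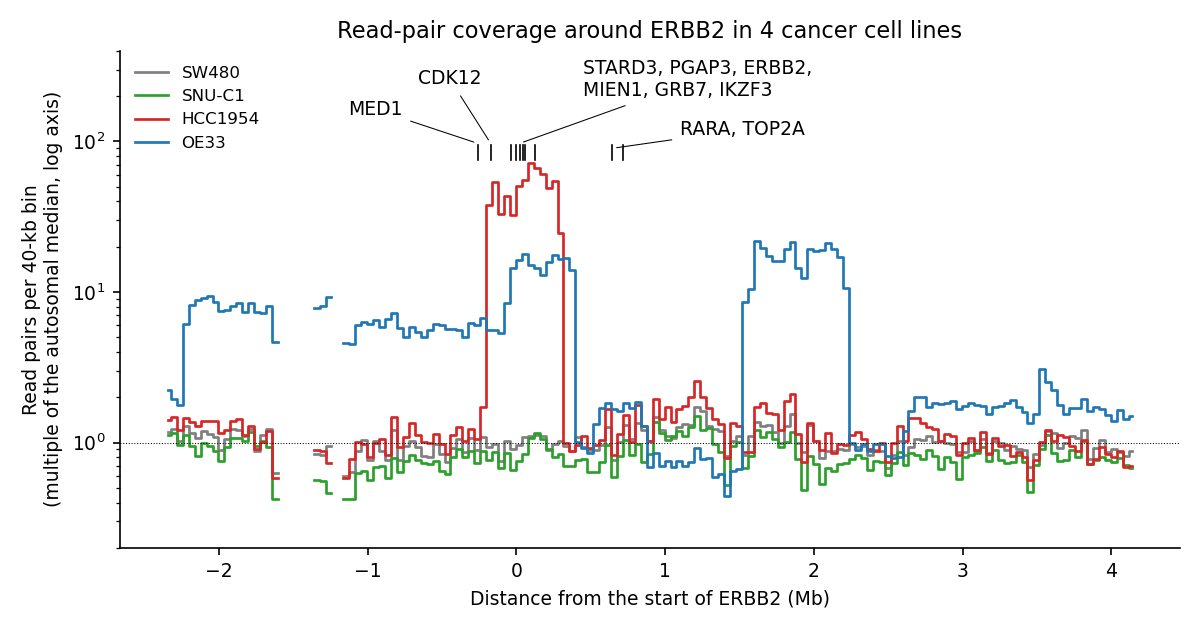
Read-pair coverage per 40-kb bin (vertical log axis, multiple of the line's autosomal median) against distance from the start of *ERBB2* in Mb, with 1 line per cell line, gaps at unusable bins and ticks at the 10 genes. HCC1954 shows 1 block of 520 kb with a median level of 50.8, and OE33 shows a wide plateau, a higher step around *ERBB2* and a second block at a median level of 18.

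Of the 198 measured genes of the window, 17 reached 4 times or more in HCC1954 and 86 in OE33, and all 17 of HCC1954 were among the 86. The 17 shared genes ran from *CDK12* to *PSMD3* and included the 7 members. Genes whose symbol begins with KRT made up 26 of the 86 in OE33, out of 62 measured in the window. Of all 198 genes 43.4% passed in OE33, so KRT genes passed no more often than the window as a whole. Several of them share a bin. No KRT gene passed in HCC1954, where 8.59% of the 198 genes did.

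Contacts were then compared between the genes. Observed over expected contact (O/E) is the deposited corrected contact over the mean of all bin pairs at that distance. The correction gives every bin a similar total, whatever its number of read pairs, so values without the correction are also given for contacts between genes and segments of the window. Contacts with other chromosomes and insulation are corrected values, unless stated otherwise. Among the 13 pairs of the 7 genes of the HCC1954 segment that share no bin, median O/E was 1.43 in SW480 and 1.47 in SNU-C1, against 0.944 in HCC1954 and 0.639 in OE33. *GRB7* and *MIEN1* are the same bin, so their pairs with *STARD3*, *PGAP3* and *CDK12* repeat the same values among the 13. Without the correction the same medians were 1.59, 1.21, 96.3 and 26.2. In raw read pairs the 7 genes therefore met each other far more often in both gained lines, and after correction they did not.

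The corrected contacts of *ERBB2* with the genes outside the HCC1954 segment were also lower in the gained lines. With *MED1*, O/E was 0.665 in SW480 (replicates 0.629 and 0.707) and 0.662 in SNU-C1, against 0.0793 in HCC1954 and 0.152 in OE33. Uncorrected, the contact with *MED1* was higher in the gained lines, at 1.29 in HCC1954 and 4.65 in OE33 against 0.762 in SW480 and 0.567 in SNU-C1. With *TOP2A* it was 0.462 (replicates 0.311 and 0.615), 0.291, 0.0513 and 0.0654, from 44, 18, 44 and 37 read pairs. The number of read pairs between *ERBB2* and *TOP2A* was thus alike in SW480 and HCC1954, although the *ERBB2* bins summed to 328328 read pairs in HCC1954 and 7666 in SW480. Uncorrected, the contact with *TOP2A* stood at 0.573 in SW480 and 0.264 in SNU-C1, against 0.778 in HCC1954 and 0.765 in OE33. *TOP2A* and *RARA*, neighbors outside the segments, kept an O/E of 1.05, 1.16, 1.13 and 0.999.

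The whole HCC1954 segment likewise had a low corrected contact with its flanks. Its O/E with the 520 kb before it was 0.904 in SW480, 0.825 in SNU-C1 and 0.0794 in HCC1954, from 5453, 3965 and 4248 read pairs. With the 520 kb after it the values were 0.809, 0.695 and 0.0886, from 5046, 3107 and 3534 read pairs. Uncorrected, these contacts were 0.926, 0.719 and 0.977 with the flank before and 0.857, 0.563 and 0.813 with the flank after. The flanks met each other across the segment at 0.523, 0.459 and 0.489. The read pairs of the HCC1954 segment with either flank thus lay between those of SW480 and SNU-C1 in number, although its own median level was 50.8.

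By distance, 88.3% (exact 95% binomial interval 88.2 to 88.4) of the *ERBB2* read pairs within chromosome 17 spanned 40 to 200 kb in HCC1954. This share was 57.2% (56.1 to 58.3) in SW480, 65.5% (64.2 to 66.9) in SNU-C1 and 58.2% (57.8 to 58.5) in OE33, against chromosome medians of 45.4%, 50.6%, 45.3% and 45.1% for SW480, SNU-C1, HCC1954 and OE33. All 4 lines lay above the chromosome's 95th percentile, which was 56.5%, 63.4%, 55.9% and 56.4%, and HCC1954 was farthest from it. Pairs over 2 to 10 Mb made up 0.545% in HCC1954 and 8.87%, 6.2% and 10.4% in SW480, SNU-C1 and OE33. In each line, pairs that join the *ERBB2* bins to each other count once in each bin, within the class of 40 to 200 kb. The intervals do not allow for this.

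Farther along chromosome 17, the *ERBB2* bins had no block of 200 kb, out of 340 at least 2 Mb away, whose O/E was at least 4, at least 4 times that of any other line after 0.5 was added to each O/E, and rested on at least 10 read pairs. This held in all 4 lines for corrected contacts, whereas read pairs without the correction gave 13 such blocks in OE33 and 1 in HCC1954. Of the 340 blocks, 28 in SW480 and 5 in SNU-C1 held 10 read pairs, against 195 in HCC1954 and 203 in OE33. Few blocks of the colon lines could therefore meet the rule. Without that minimum the corrected count was still 0 in each line. Over all pairs of adjacent bins of the chromosome as viewpoints, such blocks of corrected contacts made up 0.175% in HCC1954 and 0.0146% in OE33. That share was not calculated without the correction, so the uncorrected counts have no share to be set against. The highest O/E of *ERBB2* with a block of at least 10 read pairs was 4.54 in OE33 (58 read pairs, interval 44 to 75) and 2.66 in HCC1954 (14 read pairs, 7.65 to 23.5), both at 79.8 to 80.0 Mb. SW480 and SNU-C1 had 4.67 and 5.16 there, from 6 and 2 read pairs, so the block near the end of the chromosome did not set the gained lines apart.

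Closer by, the *ERBB2* stretch of OE33 met the second OE33 segment. Between 37.80 to 38.24 Mb and 39.36 to 40.08 Mb, O/E was 0.607 in SW480 (replicates 0.627 and 0.597) and 0.529 in SNU-C1, against 0.211 in HCC1954 and 2.27 in OE33. OE33 had 87697 read pairs there, against 762 in SW480, 393 in SNU-C1 and 768 in HCC1954, and its uncorrected O/E was 126. The O/E of OE33 lay far outside the range of the SW480 replicates and above each other line. With the sequence that separates both stretches, 38.24 to 39.36 Mb, the *ERBB2* stretch had an O/E of 0.104 in OE33 against 0.809, 0.748 and 0.384 in SW480, SNU-C1 and HCC1954. Without the correction the difference between lines was lost, with 0.69 in OE33 against 0.881, 0.605 and 0.845. On both scales the *ERBB2* stretch of OE33 was in more frequent contact with the segment beyond than with the DNA in between.

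Gene by gene, this contact was highest on the *ERBB2* plateau of OE33. *ERBB2* itself had an O/E with the second segment of 0.586 in SW480 (replicates 0.649 and 0.532) and 0.485 in SNU-C1, against 0.0831 in HCC1954 and 1.83 in OE33, from 124, 55, 157 and 12109 read pairs. The counting interval of the OE33 value was 1.8 to 1.86. *GRB7* and *MIEN1* had 1.93 in OE33, *IKZF3* 1.84, *PGAP3* 1.83 and *STARD3* 1.78. These genes share bins with each other or with *ERBB2*, so their values are not separate. Uncorrected, *ERBB2* had 108 in OE33 against 0.683 in SW480. *CDK12*, on the lower plateau, had a corrected 0.795 against 0.541 in SW480, and *MED1* had 0.625 against 0.647. Uncorrected, both were far higher in OE33, *CDK12* with 20.9 against 0.584 (4066 and 184 read pairs) and *MED1* with 20.2 against 0.743 (1863 and 111 read pairs). *RARA* and *TOP2A*, although nearer to the second segment, had a corrected 0.161 and 0.117 in OE33 against 1.15 and 1.36 in SW480. Uncorrected, *RARA* had 1.71 in OE33 against 1.28 in SW480 and 0.691 in SNU-C1, and *TOP2A* had 1.34 against 1.72 and 0.996, so their low values in OE33 were seen after correction alone.

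**Figure D3:**
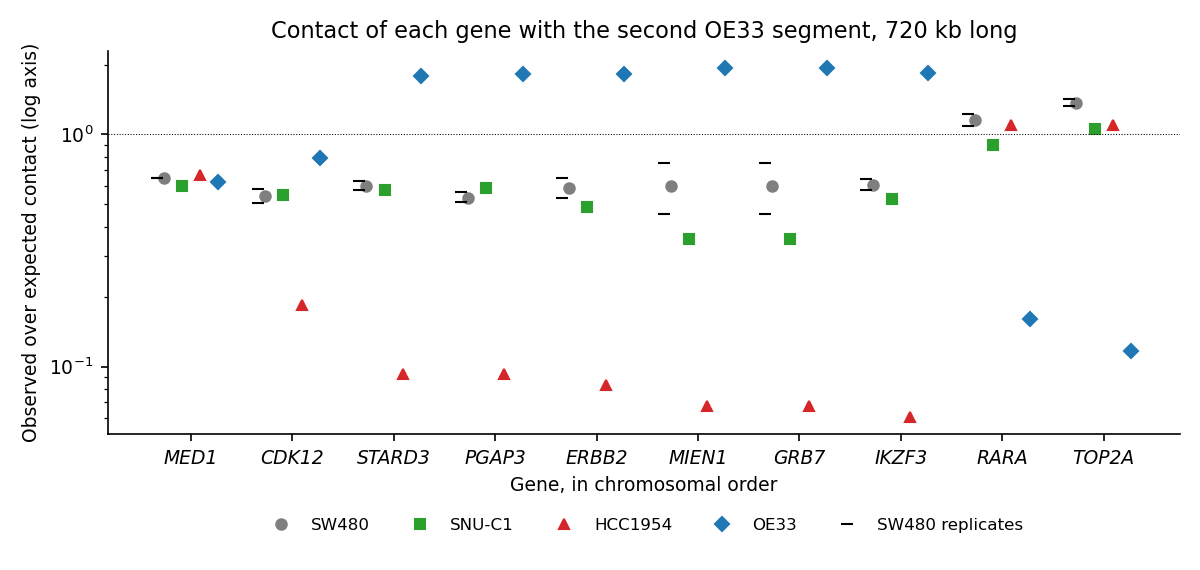
Corrected O/E (vertical log axis) between each of the 10 genes, in chromosomal order, and the second OE33 segment of 720 kb, with 1 symbol per cell line and black dashes for the SW480 replicates. In OE33 the 6 genes from *STARD3* to *IKZF3* lie between 1.78 and 1.93, above the other lines, while *RARA* at 0.161 and *TOP2A* at 0.117 lie below them.

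Contacts with other chromosomes were compared in SNU-C1, HCC1954 and OE33. In HCC1954, 62 of 2551 blocks of 1 Mb (2.43%) passed the same rule with the *ERBB2* bins, against 0.127% over all viewpoints of chromosome 17. The count was 26 with blocks of 2 Mb and 776 for read pairs without the correction. No share over all viewpoints was calculated for either setting. None passed in OE33 (1 without the correction), where the share over all viewpoints for corrected contacts was 0.0945%. The rule asks for 4 times the highest other line, and HCC1954 had a median O/E of 3.78 over the 2551 blocks. The highest O/E of OE33 was 10.8, so few blocks of OE33 could pass. None passed in SNU-C1, whose *ERBB2* bins had 917 read pairs over all 2551 blocks. Its count was 0 without the minimum of 10 read pairs as well. Of the 62 blocks, 10 lay side by side at the end of the short arm of chromosome 12, from 0 to 10 Mb, and 34 lay on chromosome 13, while the others were single blocks scattered over further chromosomes. The mean O/E of *ERBB2* over all these blocks was 5.2 in HCC1954, 2.32 in OE33 and 0.911 in SNU-C1, so the whole level was raised in the gained lines. When each line's O/E was divided by that mean, a choice made after seeing the data, 7 blocks of HCC1954 remained, all of them in the 10 Mb of chromosome 12 (0.0813% over all viewpoints). OE33 and SNU-C1 then had none, with shares over all viewpoints of 0.0152% and 0.0113%.

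**Figure D4:**
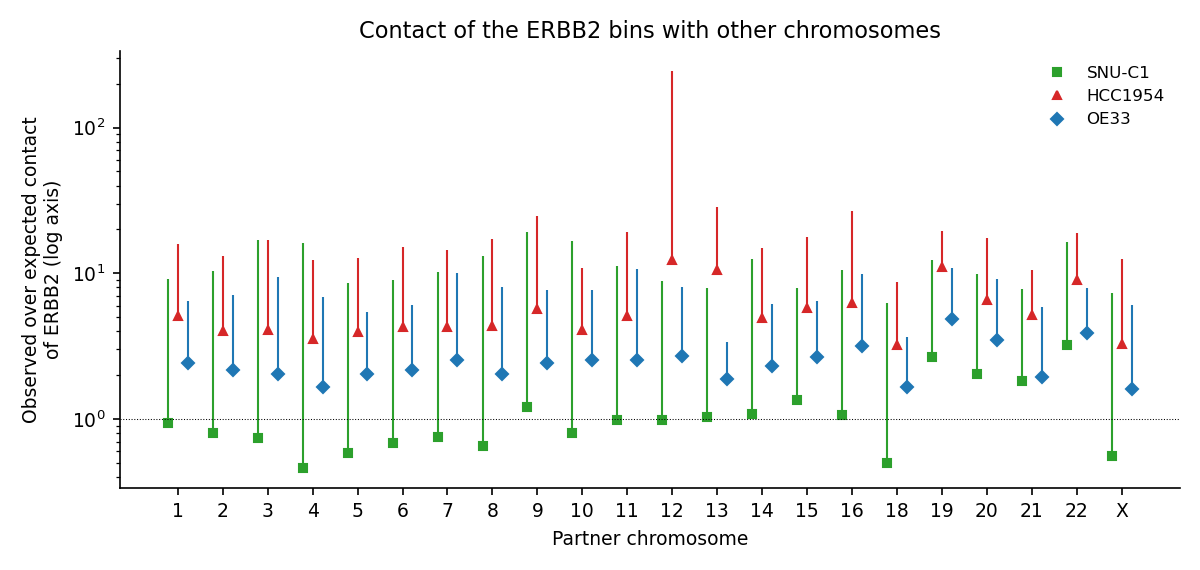
O/E of the *ERBB2* bins (vertical log axis) with each other chromosome in SNU-C1, HCC1954 and OE33, with symbols at the mean over blocks of 1 Mb and lines up to the highest block. The means of HCC1954 lie above those of the other lines on every chromosome, and its highest block is on chromosome 12, at 246.

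The chromosome 12 blocks were the strongest partners. The highest was 8 to 9 Mb, with an O/E of 246 from 970 read pairs (interval 910 to 1033), against 0 in SNU-C1 and 2.89 in OE33. The next 4 were 9 to 10 Mb at 172, 6 to 7 Mb at 128, 7 to 8 Mb at 113 and 3 to 4 Mb at 80.3. In these the other lines reached at most 7.76. The 10 blocks held 4920 read pairs of *ERBB2*, while the same stretch held 5 in SNU-C1 and 268 in OE33. Coverage of these blocks was not raised in HCC1954, with a median of 0.795 of the other lines.

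At finer scale the contact ended abruptly. Taken over the whole 520-kb segment, O/E in HCC1954 ran from 44.9 to 382 over the 44 measured blocks of 200 kb between 0 and 9.2 Mb of chromosome 12, with a median of 76. It climbed towards 9.2 Mb, with 225 at 8.6 to 8.8 Mb, 287 at 8.8 to 9.0 Mb and 382 at 9.0 to 9.2 Mb. Beyond, it fell to 6.48, and the 28 blocks up to 15 Mb had 2.46 to 9.63. The last 40-kb bin before the fall, chr12:9160001-9200000, had 346 from 425 read pairs, and the next, chr12:9200001-9240000, had 0.821 from 1 read pair. These bins overlap *KLRG1*, a receptor of natural killer and T cells, and *A2M*, alpha-2-macroglobulin, genes named after their values were seen.

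HCC1954 coverage on chromosome 12 changed at the same bin. The level went from 0.798 to 0.518 between these bins, while SW480 went from 1.69 to 1.79, SNU-C1 from 0.857 to 0.952 and OE33 from 1.04 to 0.969. Levels count all read pairs of a bin, so those of HCC1954 include the 425 and the 1 with the *ERBB2* segment. Their part in the change was not tested. Over 0 to 9.2 Mb the median level of HCC1954 was 0.97, and from 9.2 to 15 Mb it was 0.655. In the other lines the medians of these stretches were 1.51 and 1.77 in SW480, 0.888 and 1.18 in SNU-C1 and 1.14 and 1.11 in OE33.

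**Figure D5:**
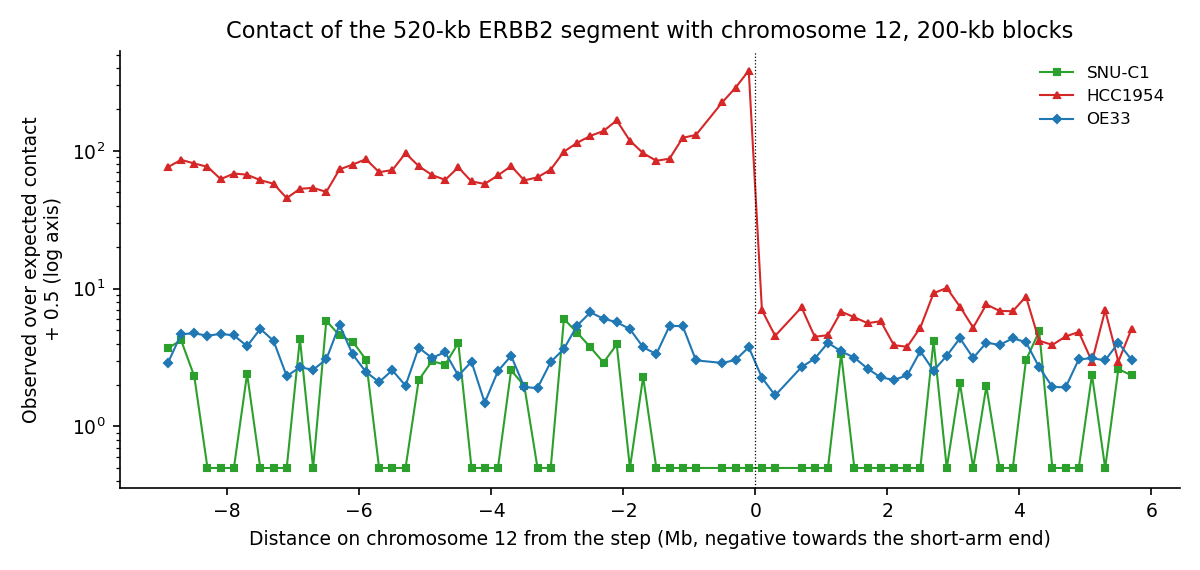
O/E plus 0.5 (vertical log axis) of the 520-kb segment of HCC1954 with blocks of 200 kb of chromosome 12 in SNU-C1, HCC1954 and OE33, against distance in Mb from the step, negative towards the end of the short arm. HCC1954 climbs to 382 before the dotted line and drops to 6.48 after it, while OE33 shows no step and most SNU-C1 blocks hold few read pairs or none.

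On the side of chromosome 17 the contact had the edges of the gained segment. All 13 bins of the segment had an O/E of 77.8 to 124 with the 9.2 Mb of chromosome 12, whereas the other 1767 usable bins of chromosome 17 had a median of 2.1 and a maximum of 8.42. By gene, O/E of HCC1954 with the first 10 Mb of chromosome 12 was 111 for *GRB7* and *MIEN1*, 105 for *IKZF3*, 98.4 for *ERBB2*, 82.4 for *PGAP3*, 77.6 for *STARD3* and 60.3 for *CDK12*, which has a bin outside. *MED1* had 4.07 from 23 read pairs, *RARA* 2.18 from 10 and *TOP2A* 1.19 from 5. In OE33 and SNU-C1 the 10 genes had 2.05 to 3.37 and 0.578 to 2.53.

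Chromosome 13 held the other large group of blocks that passed, with lower O/E. The *ERBB2* bins had a mean O/E of 10.6 with it in HCC1954, against 1.87 in OE33 and 1.03 in SNU-C1. That mean alone did not set chromosome 13 apart, since chromosome 19 had 11 and chromosome 22 had 8.96 in HCC1954, with 4.84 and 3.89 in OE33 and 2.67 and 3.24 in SNU-C1, and none of their blocks passed. The 34 blocks that passed on chromosome 13 reached at most 24.6. The 13 bins of the segment had 9.97 to 12.7, above the maximum of 7.56 among the other bins of chromosome 17, which was the bin just before the segment, at 37.60 Mb. *MED1* had 5.3 with chromosome 13 in HCC1954, *TOP2A* 2.93 and *RARA* 2.63, against 1.22, 0.749 and 0.855 in SNU-C1 and 1.97, 1.41 and 1.35 in OE33. The value of *MED1* joins 3.04 in its bin at 37.56 Mb and 7.56 in the bin at 37.60 Mb, which it shares with *CDK12*. The bins of chromosome 17 outside the segment had a median of 1.51 and a 95th percentile of 2.95 in HCC1954. Of the members outside the segment, *MED1* alone thus exceeded that percentile. No block of chromosome 13 passed once O/E was divided by its mean.

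Insulation is the log2 of contact across a bin over 1 Mb on either side relative to the chromosome mean. It was lower at the 10 genes in HCC1954 and OE33 than in the colon lines. The windows of these genes overlap, and *GRB7* and *MIEN1* share a bin, so these are not 10 separate results. The share over all genes was not calculated. At *ERBB2* the score was -0.12 in SW480 (replicates -0.14 and -0.10) and -0.14 in SNU-C1, against -0.84 in HCC1954 and -1.51 in OE33. At *TOP2A*, where the lines were closest, it was -0.56, -0.66, -0.82 and -0.95 in the same order. The lowest score of the window was at 38.16 Mb in HCC1954 (-2.21) and at 38.24 Mb in OE33 (-2.94), the right edges of the segments. In SW480 it was at 39.84 Mb (-1.18) and in SNU-C1 at 36.48 Mb (-1.70). The place of the lowest score depended on the window, since with 480 kb it was at 37.60 Mb in HCC1954 (-3.82), next to the left edge, and at 40.04 Mb in OE33 (-3.43), at the end of the second segment. With the 480-kb window the *ERBB2* score turned positive in the colon lines, at 0.15 in both, and remained negative in HCC1954 (-0.46) and OE33 (-1.23). The scores come from corrected contacts, and the part of the coverage steps in them was not tested.

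Other genes of the pathway were not gained to a like extent. Of 27 genes for ERBB receptors, ligands and downstream proteins such as adaptors and kinases, none reached 4 times the other lines in any line. In HCC1954, where 3.53% of all genes reached 2 times or more, *AREG*, which encodes the EGFR ligand amphiregulin, had 2.03 times. In OE33, 3 of the 27 did so, a smaller share than the 15.8% of all genes. These were the kinases *AKT1* at 3.17, *MAPK3* at 3.13 and *MAP2K2* at 2.72 times, at levels of 1.24, 1.98 and 1.4. In the other lines all 3 lay below the autosomal median, with *AKT1* at 0.758 in SW480, 0.389 in SNU-C1 and 0.378 in HCC1954. *ERBB3*, the usual signaling partner of ERBB2, had 0.746 in HCC1954 and 1.89 in OE33, and *EGFR* had 0.903 and 0.953.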

How the data were processed

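The authors digested chromatin with MboI for in situ Hi-C, used BWA-MEM for alignment (hg19) and Picard for duplicates (no version is given in the sources used here), and deposited a contact signal after iterative correction for pairs of 40-kb bins. Each value is a number of read pairs over the product of 2 bin factors, and these factors were fitted (45 rounds, pairs at least 5 Mb apart). Within 0.02, 99.97% to 100.00% of values up to 20.5 read pairs were whole, and 100% of those of the gained bins. Pairs within a bin, present in the SW480 maps alone, were left out. Counts of read pairs and not DNA copies were compared.

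Bins with at least 0.25 of the autosomal median in all 4 lines were usable. Coverage of a gene is the median over its bins, with GENCODE release 44 on GRCh37, whose chromosomes matched the bins on all 23. O/E divides by the mean at the same distance over all chromosomes or by the mean of all pairs of different chromosomes. The map of SW480 without a number stood for that line. No test was made, because 3 lines had 1 map. The study states that its Hi-C was analyzed in duplicate and describes the replicates as biological. Its labels do not say if SNU-C1, HCC1954 or OE33 maps each join more than 1 library. Intervals are exact 95% Poisson or Clopper-Pearson intervals. On simulated maps of 1200 bins, at least 99.7% of values gave the planted number of read pairs, and the fit found gained segments to within 2 bins and both planted blocks of contact.

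Named were the 10 members, pathway genes at 2 times or more (1 result is not reported here), genes at segment edges and up to 5 partner blocks per line on chromosome 17 and on other chromosomes. *EGFR*, *ERBB3*, *JUP*, *KLRG1* and *A2M* fall outside this rule and were named after their values were seen. The members, lists and rules were chosen with earlier results of these data known. Other folds, references, counted pairs, block sizes, windows and uncorrected read pairs were tried. Calculations used Python 3.11.15, numpy 2.4.6, scipy 1.17.1 and numba 0.67.0.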

Additional observations from a re-analysis of the deposited data

How the results depend on the processing

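Of the 10 genes, the 7 in HCC1954 kept 4 times or more under all 7 alternatives tried on coverage. For *ERBB2* the ratio of HCC1954, 51.7, became 48.2 with pairs within chromosome 17, 7.05 with pairs between chromosomes, 25.5 over 1 Mb, 50.3 on the scale of chromosome 17, 58.3 against SW480 and SNU-C1, and 51.2 to 52.3 without an SW480 replicate. That of OE33, 16.6, became 15.5, 0.537, 6.94, 10.7 and 18.8, and 16.5 to 16.8. The value under 1 comes from the construction, since without SW480 the reference is the mean of SNU-C1 and HCC1954. There OE33 also turned for *GRB7* and *MIEN1* (0.569), *STARD3* (0.498), *PGAP3* (0.588), *CDK12* (0.306) and *IKZF3* (0.346), leaving 1 member at 4 times. On the scale of chromosome 17, *CDK12* in OE33 had 3.79 and no longer reached 4 times. OE33 had 4 segments at 2 times and 4 at 8 times, where the one with *ERBB2* measured 480 kb. Without bin factors, specific blocks of chromosome 17 numbered 1 in HCC1954 and 13 in OE33, and those of other chromosomes 776 and 1. For HCC1954 there were 26 with 2-Mb blocks and 7 with O/E over its mean. Shares over all viewpoints were not calculated without bin factors or with 2-Mb blocks. Median O/E of the 7 genes without bin factors was 1.59, 1.21, 96.3 and 26.2 in SW480, SNU-C1, HCC1954 and OE33. With a 480-kb window, insulation at *ERBB2* was 0.15 in SW480 and SNU-C1, turning sign, -0.46 in HCC1954 and -1.23 in OE33. The cause of the changes other than that of the reference was not tested. No paired analysis was possible because numbered replicates exist for SW480 alone. Steps are placed to 40 kb at best, and SNU-C1 had 917 *ERBB2* read pairs over all blocks of other chromosomes.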
